A study of Rattus norvegicus with 6 samples.

Results

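Fat-cell and lipogenic genes were examined in rat myocardium, 10 genes in all of 32623 listed: Scd, Fasn, Acaca, Plin1, Adipoq, Cidec, Lipe, Fabp4, Pnpla2 and Pck1. They were picked by name, because Scd was already known to be lower in the ischemia libraries and because fat genes were known to vary among the sham libraries, so their sham and ischemia values are given as a description and without p-values. Each gene had 1 row under its symbol, and all 10 passed the filter on low values, a mean of at least 0.5 FPKM (fragment counts scaled to gene length and library size), which 13964 genes passed. Total RNA had been sequenced from myocardial tissue of male wild-type rats, 3 sham-operated and 3 with the left anterior descending artery, a main coronary branch, tied off for 30 min. For the sham rats a 30 min time is given and no ligation is described. Anesthesia, ventilation and thoracotomy are described for the ligation, and the steps of the sham operation are not listed separately. The labels give neither age nor strain, and do not say which piece of the heart was taken or that each library is a separate animal, so the spread between libraries may be partly technical.

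White fat cells store triglyceride in a droplet coated by perilipin 1 (Plin1) and by CIDE proteins, secrete adiponectin (Adipoq), and release fatty acids by stepwise lipolysis. Fatty acids are made from citrate-derived acetyl-CoA by acetyl-CoA carboxylase and fatty acid synthase and are then desaturated by stearoyl-CoA desaturase, a program driven by the transcription factor SREBP-1c and by insulin. In contrast, the heart burns far more fatty acid than it makes. Adipose tissue lies on its surface, over the grooves between the chambers and along the coronary vessels, and cardiomyocytes share with fat cells the lipases and several lipid droplet proteins.

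The libraries held between 68529126 and 79591989 counts, of which 15.4% to 21.4% came from the mitochondrial genome, and a level of 3 counts, the floor used here, was 0.0377 to 0.0438 CPM (counts per library size), a limit from counting error alone. Sham replicate 1 carried 161 counts over 48 genes of the Y chromosome against 3218 to 8970 in the other 5 libraries, although the rats are described as male. Atrial myocyte markers were 9 genes led by the natriuretic peptide gene Nppa. In the order of the replicate numbers they summed to 48791, 273 and 39721 FPKM in sham and to 9698, 2097 and 1303 in ischemia. The libraries thus did not hold like amounts of RNA of these 9 genes, and whether they differed in atrial tissue was not tested. Among 13964 tested genes, 723 (5.18%) were higher and 214 (1.53%) lower in ischemia at an adjusted p under 0.05 (edgeR, quasi-likelihood test, Benjamini-Hochberg), with a median log2 fold change of -0.0015. With either sham replicate 1, sham replicate 2, sham replicate 3 or ischemia replicate 3 left out, 0 genes passed in edgeR (3020 to 3809 at an unadjusted p under 0.05), while 2605 passed without ischemia replicate 1 and 571 without ischemia replicate 2.

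Stretches of DNA before the start of 2 lipogenic and 2 fat-cell genes are shown. They were picked because Scd and the nearby Scd2 were low in each ischemia library, while Adipoq and Plin1 followed each other across the libraries. Each run is 250 bases long and ends at the base before the gene's start, read 5′ to 3′ on the gene's strand from RefSeq (build GRCr8). Capitals mark the CCAAT box, which reads ATTGG where it lies on the opposite strand. The windows are chr1:253231732-253231981 on the minus strand for Scd, chr1:253118127-253118376 on the plus strand for Scd2, chr11:91240170-91240419 on the minus strand for Adipoq and chr1:143086149-143086398 on the minus strand for Plin1.
Scd: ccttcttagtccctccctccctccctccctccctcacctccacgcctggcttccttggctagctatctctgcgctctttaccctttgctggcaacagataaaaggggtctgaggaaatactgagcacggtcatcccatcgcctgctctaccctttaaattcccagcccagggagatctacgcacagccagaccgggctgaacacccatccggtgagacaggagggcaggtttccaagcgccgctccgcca
Scd2: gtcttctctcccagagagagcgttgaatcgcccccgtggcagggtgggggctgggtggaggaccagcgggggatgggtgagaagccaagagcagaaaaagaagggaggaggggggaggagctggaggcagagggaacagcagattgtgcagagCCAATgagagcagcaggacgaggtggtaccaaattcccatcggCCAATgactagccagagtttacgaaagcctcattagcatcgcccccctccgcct
Adipoq: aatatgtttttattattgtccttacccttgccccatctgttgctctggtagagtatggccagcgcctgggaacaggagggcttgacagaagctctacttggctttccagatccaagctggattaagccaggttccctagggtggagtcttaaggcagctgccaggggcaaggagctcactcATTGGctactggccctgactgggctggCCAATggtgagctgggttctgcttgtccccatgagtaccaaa
Plin1: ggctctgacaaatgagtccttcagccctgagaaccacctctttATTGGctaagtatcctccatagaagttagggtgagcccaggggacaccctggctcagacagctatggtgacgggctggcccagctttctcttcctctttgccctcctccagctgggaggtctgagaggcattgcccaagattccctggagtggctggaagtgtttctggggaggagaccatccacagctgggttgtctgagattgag

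Each window was searched on both strands for the CCAAT box, the E-box with the letters CACGTG, the sterol response element written TCACNCCAC, the TATA-like string TATAAA, the nuclear receptor site AGGTCA and a pair of the latter with 1 base between them. Adipoq held CCAAT at -42 and, on the opposite strand, at -69, Scd2 held it at -97 and -54, and Plin1 held it on the opposite strand at -207, counted from the gene's start to the leftmost base of the match. CCAAT was present in 34.0% of 33469 windows of the same length, so its presence is common. Pck1 held AGGTCA at -144, a motif of 14.1% of windows. The windows of Scd, Cidec and Pnpla2 held no match. The E-box was present in 5.59% of windows, the TATA-like string in 12.9%, the sterol element in 0.974% and the paired site in 0.0508%, and none of the 6 members with a window held any of these. A match is a string of letters and not evidence of binding. Fasn, Acaca, Lipe and Fabp4 had no matching entry.

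Scd is the desaturase that turns saturated into monounsaturated fatty acids (ENSRNOG00000013552, chromosome 1, 264160129 to 264172729 in the deposited table, whose build is not named). Scd had the lowest log2 fold change of the 10 genes in the main edgeR fit, though not in every alternative. Its FPKM was 17.2, 22.5 and 331 in the sham libraries and 0.737, 1.34 and 0.326 in the ischemia libraries, in the order of replicates 1, 2 and 3 as everywhere below, from 5867, 8160 and 107573 counts against 272, 451 and 104. Every ischemia library lay below every sham library, and sham replicate 3 stood 14.7-fold above the next sham library. The fitted log2 fold change was -7.30 ± 1.49 (SE, n = 3 and 3). Without sham replicate 3 it was -4.84, so 1 library carried part of its size, and the direction was the same with each of the 6 libraries left out in turn.

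Fasn, fatty acid synthase (ENSRNOG00000045636, chromosome 10, 109987735 to 110005901), gave FPKM of 10.96, 19.5 and 127 in sham and 4.84, 8.91 and 5.51 in ischemia. Acaca, the acetyl-CoA carboxylase that supplies it with malonyl-CoA (ENSRNOG00000034013, chromosome 10, 71536533 to 71719910), gave 3.42, 3.73 and 10.9 in sham and 1.99, 2.11 and 1.9998 in ischemia. Both enzymes were below every sham library in every ischemia library, and both were highest in sham replicate 3, as Scd was. Their log2 fold changes were -3.06 ± 0.91 and -1.62 ± 0.44 (SE), and -1.46 and -0.98 without sham replicate 3. Acaca was almost constant within ischemia: the SD of its log2(FPKM + 0.1) over the 3 libraries was 0.044, a value below which only 1.49% of tested genes lay, where the median gene had 0.416.

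Scd2, a further desaturase gene (ENSRNOG00000046005), lies 87.7 kb from Scd on chromosome 1. Another gene of the family, Scd4, lies between them, with 21 counts in sham replicate 3 and 0 in the other libraries. The FPKM of Scd2 was 35.3, 17.5 and 71.1 in sham and 9.40, 10.2 and 6.25 in ischemia, so its groups did not overlap either. The sham libraries did not stand in the order of Scd, since Scd2 was lowest in sham replicate 2. Scd2 was lower in ischemia by a log2 fold change of -2.30 ± 0.46 (SE; edgeR adjusted p = 0.0439, with a range over alternatives of 1.6e-05 to 0.16), and leaving out each library in turn gave -2.62 to -1.73. The call was lost on leaving out any library other than ischemia replicate 1, without TMM scaling of library sizes (edgeR adjusted p = 0.0581) and in limma on log2(FPKM + 0.1) (adjusted p = 0.0512). The FPKM ratio of Scd to Scd2 was 0.487, 1.29 and 4.66 in sham and 0.0784, 0.131 and 0.0521 in ischemia. Reads shared by the paralogs could have been split or dropped at counting, so their levels carry that uncertainty.

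**Figure D1:**
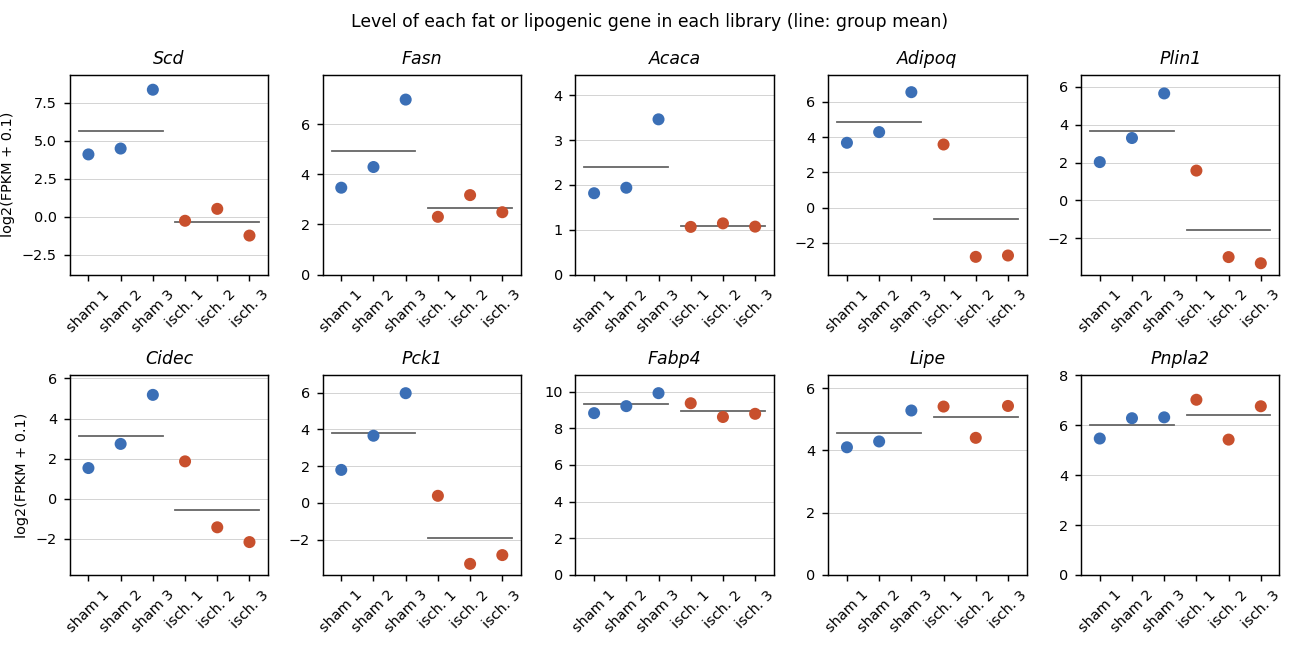
Levels of the 10 genes as log2(FPKM + 0.1) on the vertical axis, for 3 sham (blue) and 3 ischemia (orange) libraries, with a line at each group mean. Sham replicate 3 is the highest sham library in all 10 panels, and ischemia replicate 1 lies close to sham replicate 1 for Adipoq, Plin1 and Cidec but not for Scd.

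The fat-cell genes had another pattern. Adipoq, which encodes the fat-cell hormone adiponectin (ENSRNOG00000001821, chromosome 11, 81330293 to 81344488), had FPKM of 12.7, 19.3 and 93.3 in sham, against 11.8, 0.0441 and 0.0520 in ischemia. The last pair of values came from 7 and 8 counts, where ischemia replicate 1 had 1990. Ischemia replicate 1 was thus 0.935 times sham replicate 1, just below the lowest sham library, and 268-fold and 228-fold above the other ischemia libraries.

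Plin1, the perilipin that coats the droplet of fat cells and gates lipolysis (ENSRNOG00000015086, chromosome 1, 141458181 to 141471010), gave FPKM of 3.97, 9.75 and 50.4 in sham and 2.88 in ischemia replicate 1. It had 6 counts in ischemia replicate 2 and 0 in ischemia replicate 3. Cidec, which promotes the fusion of droplets into a large one (ENSRNOG00000009153, chromosome 4, 145377431 to 145390497), gave 2.79, 6.55 and 36.2 in sham and 3.54, 0.272 and 0.123 in ischemia. Its groups overlapped, as ischemia replicate 1 lay above sham replicate 1. Pck1, the carboxykinase that fat cells use to make glycerol phosphate for triglyceride (ENSRNOG00000028616, chromosome 3, 171213936 to 171219871), gave 3.37, 12.5 and 62.8 in sham and 1.21 in ischemia replicate 1, with 0 and 8 counts in the other ischemia libraries.

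The log2 fold changes of these 4 genes rested on which ischemia libraries were used. They were -3.40 ± 2.03 for Adipoq, -4.46 ± 2.13 for Plin1, -3.54 ± 1.52 for Cidec and -5.97 ± 2.03 for Pck1 (SE, n = 3 and 3). Without ischemia replicate 1 they were -9.72, -10.63, -6.31 and -10.27, with few or no counts left in the ischemia group, and without sham replicate 3 they were -2.17, -3.02, -2.03 and -4.46. Scd, by contrast, was -7.29 without ischemia replicate 1. In bulk tissue, fewer fat cells and less RNA of these genes per cell cannot be told apart.

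Scd stood apart from the other genes in ischemia replicate 1. Relative to sham replicate 1, the FPKM of ischemia replicate 1 was 1.27 times for Cidec, 0.935 times for Adipoq, 0.726 times for Plin1, 0.582 times for Acaca, 0.442 times for Fasn, 0.358 times for Pck1 and 0.0428 times for Scd, so the lipogenic and the fat-cell genes interleaved and Scd alone was far lower. Sham replicate 1 was the lowest sham library for each of them, and the ratios depended on the reference. Relative to sham replicate 2 they were 0.612 times for Adipoq, 0.540 times for Cidec, 0.533 times for Acaca, 0.296 times for Plin1, 0.248 times for Fasn, 0.0963 times for Pck1 and 0.0327 times for Scd. Relative to sham replicate 3 they were 0.182 times for Acaca, 0.127 times for Adipoq, 0.0979 times for Cidec, 0.0572 times for Plin1, 0.0383 times for Fasn, 0.0192 times for Pck1 and 0.0022 times for Scd. Against each sham library Scd had the lowest ratio, followed by Pck1 and Fasn, whereas the order of the other 4 changed. Per unit of Adipoq, Scd was 1.36, 1.16 and 3.55 in the sham libraries and 0.0622 in ischemia replicate 1. In ischemia replicates 2 and 3 the same ratio of FPKM values was 30.4 and 6.27, because Adipoq was close to 0 there. A low ratio of Scd to Adipoq was seen in 1 of the 3 ischemia libraries, so it has no replicate.

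**Figure D2:**
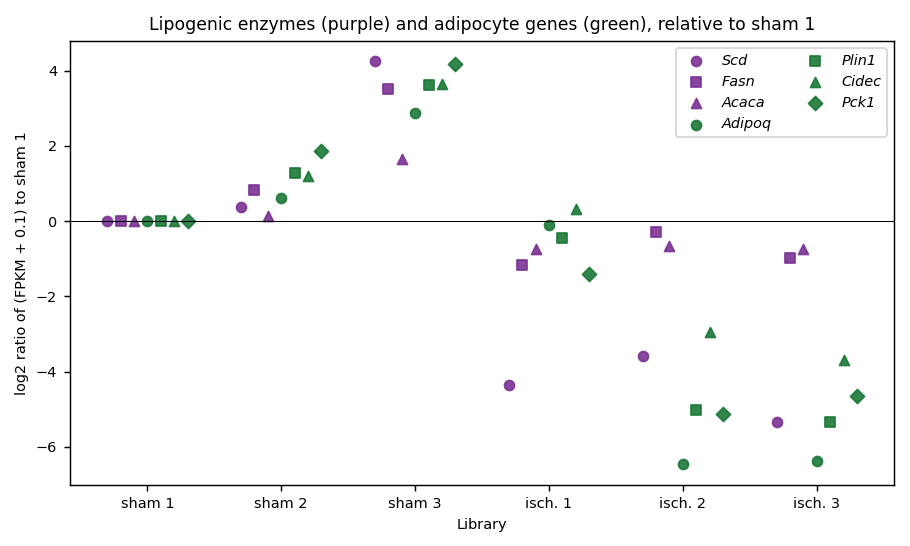
Log2 ratio of (FPKM + 0.1) to the value of sham replicate 1 on the vertical axis, for 3 lipogenic enzymes (purple) and 4 fat-cell genes (green) in each of the 6 libraries. In ischemia replicate 1 Adipoq and Cidec lie near 0 and Scd lies lowest, and in ischemia replicates 2 and 3 the fat-cell genes lie below Fasn and Acaca.

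The lipases and the fatty acid binding protein differed less between the groups. Lipe, hormone-sensitive lipase, which cleaves diacylglycerol (ENSRNOG00000020546, chromosome 1, 82248046 to 82266727), had FPKM of 17.1, 19.4 and 38.8 in sham and 42.4, 21.1 and 43.0 in ischemia. Pnpla2, adipose triglyceride lipase, the enzyme of the initial step (ENSRNOG00000018736, chromosome 1, 214434626 to 214439720), had 44.2, 77.8 and 79.7 in sham and 130.1, 42.9 and 109 in ischemia. Fabp4, a fatty acid carrier of fat cells that capillary endothelium and macrophages also make (ENSRNOG00000010805, chromosome 2, 93792601 to 93797305), had 454, 592 and 967 in sham and 660.5, 392 and 442 in ischemia. For all 3 the groups overlapped, with log2 fold changes of 0.45 ± 0.42 for Lipe, 0.40 ± 0.50 for Pnpla2 and -0.50 ± 0.36 for Fabp4 (SE). Summed FPKM of 8 endothelial markers in the table, led by the water channel gene Aqp1, was 513 to 556 in sham and 582 to 660 in ischemia, a far narrower range than that of Adipoq.

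Over the 10 genes, 6 had every ischemia library below every sham library and 0 the reverse, and 4 overlapped. Among all tested genes 15.0% lay wholly below and 23.6% wholly above. By edgeR 1 of the 10 passed as lower, namely Scd, and 0 passed as higher, against 1.53% and 5.18% of all tested genes. The call of Scd was lost in 9 of 18 alternatives, among them each library left out, no TMM and no filter. DESeq2 and limma passed 5 and 2 of the 10 as lower, where they passed 1742 and 262 of all 13964. As the genes were chosen on this contrast, nothing is read from these counts. Their median log2 fold change was -3.23, beside -0.0015 for all tested genes.

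**Figure D3:**
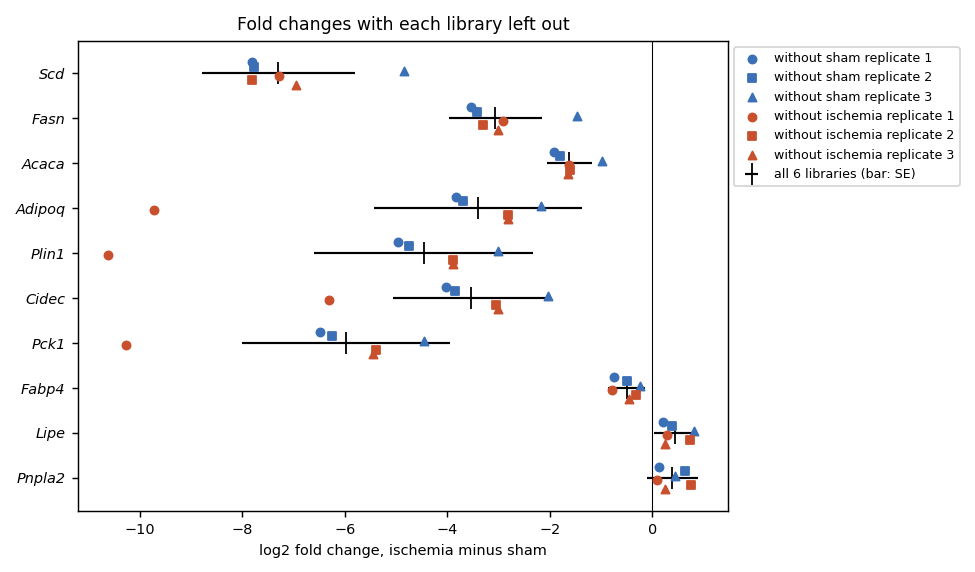
Log2 fold change of ischemia against sham on the horizontal axis for each gene, from all 6 libraries (black tick, bar of 1 SE) and with each library left out in turn (coloured symbols). Leaving out ischemia replicate 1 moves Adipoq, Plin1, Cidec and Pck1 to between -10.63 and -6.31, and leaving out sham replicate 3 moves Scd to -4.84.

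The sham libraries themselves differed widely. Sham replicate 3 was the highest sham library for 10 of 10 genes and the highest of all 6 libraries for 8, where 15.8% of tested genes were highest in it. Against sham replicate 1 it was 19.3-fold higher in Scd, 18.6-fold in Pck1, 13.0-fold in Cidec, 12.7-fold in Plin1, 11.5-fold in Fasn, 7.37-fold in Adipoq and 3.20-fold in Acaca. Lipe, Fabp4 and Pnpla2 were 2.28-fold, 2.13-fold and 1.80-fold higher. The SD of log2(FPKM + 0.1) within sham was 2.36 for Scd and 2.09 for Pck1, where the median tested gene had 0.334. Sham replicate 1, the library with few Y-linked counts, was the lowest sham library for all 10 genes, and without it the log2 fold changes were -7.81 for Scd, -3.54 for Fasn, -1.91 for Acaca, -3.83 for Adipoq, -4.96 for Plin1, -4.03 for Cidec and -6.50 for Pck1.

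Markers of fat tissue that are not among the 10 genes were in part highest and lowest in the same libraries. The 22 white adipocyte markers summed to 310, 566 and 1435 FPKM in sham and 405, 203 and 240 in ischemia, and 15 of 20 tested were highest in sham replicate 3. None of these 20 passed edgeR (6 at an unadjusted p under 0.05), while DESeq2 passed 7 as lower and limma 2. The list is led by Slc2a4, the insulin-responsive glucose transporter that cardiomyocytes also make, so its sum is not fat alone. Rbp4, the retinol carrier that fat cells secrete, had FPKM of 11.9, 13.7 and 127 in sham and 8.31, 1.48 and 1.04 in ischemia. Retn, the resistin gene, was at 3.13, 6.87 and 37.3 in sham against 8.22, 0.118 and 0 in ischemia, so ischemia replicate 1 lay within the sham range. Thrsp, a lipogenic regulator, was at 15.5, 38.2 and 454 in sham and 3.66, 0.524 and 0.265 in ischemia. Its ratio of ischemia replicate 1 to sham was 0.236, 0.0958 and 0.0081 against sham replicates 1, 2 and 3, where that of Scd was 0.0428, 0.0327 and 0.0022. Other genes of the list had other patterns. Dgat2, which completes triglyceride synthesis, was at 3.74, 13.5 and 71.1 in sham and reached 78.1 in ischemia replicate 2, with 13.1 in each of the other ischemia libraries. Gpd1, which makes glycerol phosphate, was at 16.9, 63.2 and 156 against 110.0, 18.0 and 69.5. Aqp7, the glycerol channel, was at 7.89, 75.3 and 30.7 against 67.2, 23.9 and 56.9, and the droplet protein gene Plin4 at 26.0, 46.5 and 26.6 against 33.5, 9.51 and 28.9. For these 4 genes the groups overlapped.

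Ucp1, the uncoupling protein that defines brown fat, was at 0.165, 16.4 and 111 FPKM in sham against 0.206, 0 and 0 in ischemia. It was 674-fold higher in sham replicate 3 than in sham replicate 1. The ratio of ischemia replicate 1 to sham for Ucp1 was 1.25, 0.0126 and 0.0019 against sham replicates 1, 2 and 3. Against sham replicates 2 and 3 it was thus below that of Scd (0.0327 and 0.0022). Of the 12 listed brown adipocyte genes, 5 were highest in sham replicate 3. Cidea and Cpt1b differed less than Ucp1 between sham replicates 1 and 3. Cidea, a lipid droplet protein gene, was at 153, 72.1 and 248 in sham against 76.6, 16.4 and 36.7 in ischemia, and Cpt1b, the muscle carnitine palmitoyltransferase, at 119, 198 and 114 in sham against 161, 28.3 and 93.4. The 12 brown adipocyte markers as a list summed to 1706, 2948 and 1852 FPKM in sham against 2282, 987 and 1844 in ischemia, led by the cytochrome oxidase gene Cox8b, which cardiac muscle also makes, with 0 of 7 tested passing edgeR (3 at an unadjusted p under 0.05, 3 by DESeq2 and 0 by limma).

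Markers of other cell types also differed between the same libraries. The 9 epicardial markers in the table, led by Msln, summed to 128, 56.2 and 93.8 FPKM in sham against 43.9, 7.48 and 6.32 in ischemia. Of 9 tested, 0 passed edgeR, 3 had an unadjusted p under 0.05, and DESeq2 and limma each passed 3 as lower. The defining epicardial gene Upk3b was at 0.560 in ischemia replicate 1 and at 0 and 0.0850 in the others, against 7.71 to 19.6 in sham. The 8 markers of adipose stroma and fibroblasts, led by Gsn, summed to 2297, 1133 and 2783 in sham and 1025, 432.5 and 462 in ischemia, with Dpp4 and Pi16 lower in ischemia (log2 fold changes of -2.20 ± 0.23 and -2.94 ± 0.63; edgeR adjusted p = 0.0246 and 0.0484). The 11 neutrophil and monocyte markers, led by S100a9, summed to 14.9 to 31.8 in sham and 849 to 3977 in ischemia, and 10 of 10 tested were higher by edgeR. Macrophage markers, led by Lyz2, summed to 224 to 374 and 924 to 5038, with 3 of 8 tested higher by edgeR. Not all moved alike: 5 log2 fold changes lay above 0 and 3 below, and 5 were higher and 2 lower at an unadjusted p under 0.05. Ventricular markers, led by Tnni3, summed to 10382 to 25119 in sham and 7137 to 16152 in ischemia with no call (1 at an unadjusted p under 0.05, 1 by DESeq2 and 1 by limma), and liver markers, led by Tf, to 50.3 to 66.2 and 47.0 to 88.2.

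The sums of the white adipocyte, epicardial and stromal lists were each lowest in ischemia replicates 2 and 3, and that of the atrial list in those and sham replicate 2, and the part of these tissues in the changes of the 10 genes was not tested. Adipoq and the atrial sum can be set side by side: 12.7 and 48791 FPKM in sham replicate 1, 19.3 and 273 in sham replicate 2, and 93.3 and 39721 in sham replicate 3. Under ischemia the same pairs were 11.8 and 9698, 0.0441 and 2097, and 0.0520 and 1303, so replicate 1 was the highest ischemia library in both, while the sham libraries did not stand in 1 order. Acaca and Fasn stayed measurable where Adipoq had 7 and 8 counts, with 1075 and 965 counts of Acaca and 6110 and 3578 of Fasn in ischemia replicates 2 and 3.

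**Figure D4:**
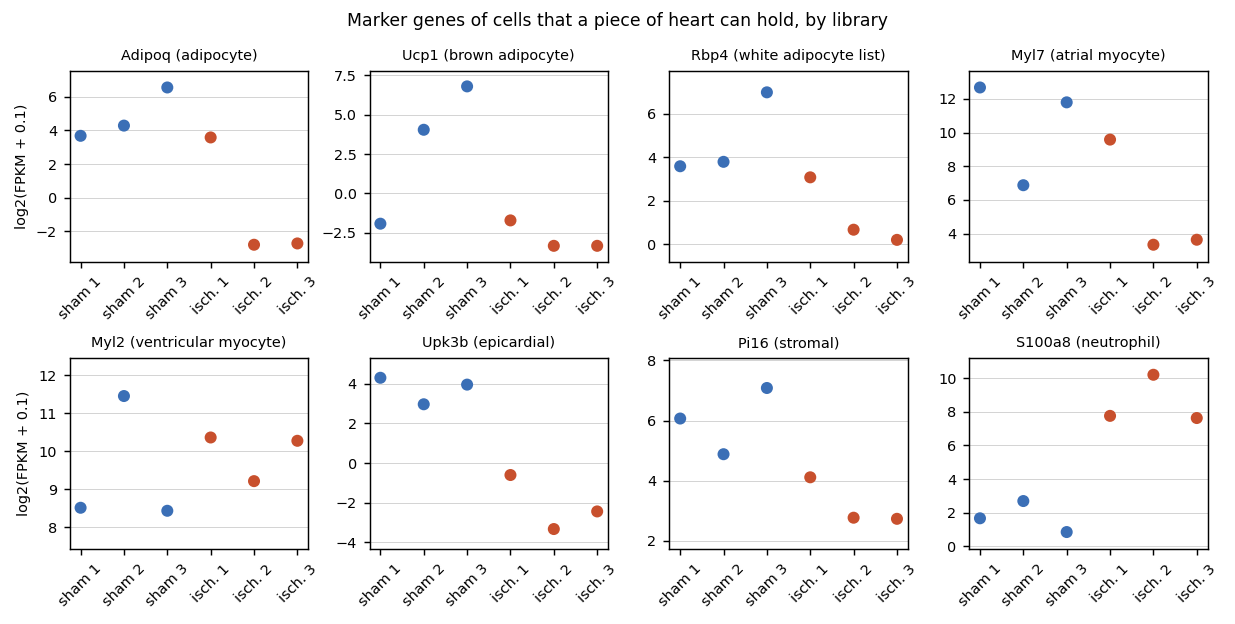
Marker genes of 8 cell types or lists as log2(FPKM + 0.1) on the vertical axis in 3 sham (blue) and 3 ischemia (orange) libraries. Adipoq, Rbp4, Upk3b and Pi16 are lowest in ischemia replicates 2 and 3, Ucp1 is at 0 there, and S100a8 is above every sham library in every ischemia library.

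Likeness across the 6 libraries was described by Pearson r of log2(FPKM + 0.1). The libraries share the group difference and the differences in marker levels given above. Of the tested genes, 220 had an r over 0.9 with Scd and 810 with Adipoq, so a high r is common here. With Scd, r was 0.960 for Acaca, 0.938 for Fasn, 0.912 for Pck1, 0.866 for Plin1, 0.865 for Cidec, 0.795 for Adipoq, 0.678 for Fabp4, -0.23 for Lipe and -0.27 for Pnpla2. With Adipoq, r was 0.989 for Plin1, 0.972 for Cidec and 0.955 for Pck1, 0.821 for Fabp4, 0.740 for Acaca and 0.650 for Fasn. With group means removed, Scd kept r of 0.959 with Fasn and 0.949 with Acaca. Scd had 0.703 with Fabp4, 0.657 with Cidec, 0.613 with Pck1, 0.539 with Plin1, 0.487 with Lipe, 0.372 with Adipoq and 0.048 with Pnpla2. Adipoq kept 0.976 with Plin1. The order depended on the measure: by rank correlation with Scd, Plin1, Fasn and Acaca all had 0.943, and on log2(FPKM + 1) the r with Scd was 0.963 for Pck1 and 0.955 for Fasn.

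Apart from the 10 genes themselves and genes with placeholder names, which were passed over, those most like Scd over the 6 libraries were Atcay (r = 0.996), Mafa, Cd4, Sh3gl2, Stk32c, Nlgn2, Nck2, Clec3a, Gpr34 and Scly (r = 0.975). On the same terms, those most like Adipoq were Ca3 (r = 0.997), Nubpl, Tmem216, Mpnd, Psenen, Adora1, Adh6, Nadsyn1, Neil1 and Mansc1 (r = 0.985), and Plin1 would stand among them. None of these 20 genes is on a lipid pathway list or a marker list, but absence from these lists does not show that fat cells do not make a gene. Ordered by r over all tested genes, placeholder names included and with the gene itself in place 1, Plin1 took place 9 for Adipoq and Acaca place 29 for Scd.

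The wider lipid pathways were examined with 8 lists of genes by textbook role, 136 genes that exclude the 10. Of 121 tested, 5 were higher and 4 lower in ischemia by edgeR, beside 5.18% and 1.53% of all tested genes. Of the 121, 45 had an unadjusted p under 0.05, as did 4528 of all 13964. DESeq2 passed 16 as higher and 25 as lower, beside 2071 and 1742 of all 13964. Limma passed 6 and 4, beside 850 and 262. The median log2 fold change was -0.30, beside -0.0015 for all tested genes, and 76 of the 121 lay below 0, as did 6996 of all 13964.

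In fatty acid synthesis and desaturation, edgeR called 1 of 19 tested lower (Scd2, above) and 0 higher, with a median of -0.86. DESeq2 called 7 lower and 1 higher, limma 1, which was not Scd2, and 0, and 8 had an unadjusted p under 0.05. Srebf1, which encodes SREBP-1c, was at 8.53, 11.1 and 31.7 FPKM in sham and 6.01, 6.49 and 4.52 in ischemia and did not pass (log2 fold change -1.65 ± 0.48; edgeR adjusted p = 0.0797). Acly, which makes the acetyl-CoA, was at 13.1, 11.6 and 63.6 in sham and 12.1, 21.9 and 15.7 in ischemia, with groups that overlapped. Sham replicate 3 alone stood apart for Acly.

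Lipid droplet and uptake genes held 3 of the 5 higher calls. Plin2, the perilipin that coats droplets outside fat cells, was at 73.1, 60.0 and 58.2 FPKM in sham and 241, 323 and 206 in ischemia, a log2 fold change of 1.91 ± 0.22 (SE; edgeR adjusted p = 0.0272). It was thus high in all 3 ischemia libraries, with or without counts of Plin1. Cav1, caveolin 1 of endothelial and fat-cell caveolae, was the only gene of the 18 tested in lipolysis and droplets that edgeR called lower, at 189, 194 and 220.1 in sham and 94.0, 53.4 and 77.8 in ischemia (log2 fold change -1.50 ± 0.29; edgeR adjusted p = 0.0422). In that list DESeq2 called 2 higher and 3 lower where limma called 1 and 1. Of 11 tested uptake genes, edgeR called 2 higher and 0 lower, DESeq2 4 and 1, and limma 2 and 0, and 2 were lower at an unadjusted p under 0.05. Angptl4, an inhibitor of lipoprotein lipase, went from 0.736, 1.30 and 2.82 to 140.4, 76.5 and 99.1 FPKM, a log2 fold change of 5.96 ± 0.61 (edgeR adjusted p = 0.0246). Slc27a4, a fatty acid transport protein, went from 6.66, 5.07 and 7.99 to 14.1, 24.2 and 20.7 (1.50 ± 0.23 on the log2 scale; edgeR adjusted p = 0.0311).

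Of the 17 adipogenic transcription factors, edgeR and limma each called 2 higher and 2 lower and DESeq2 2 and 6. Of the 17, 13 lay below 0, where 6996 of 13964 tested genes did. Every ischemia library was below every sham library for 7 and above for 2, beside 15.0% and 23.6% of all tested genes. Cebpb and Cebpd, early factors of fat-cell differentiation that inflammation also induces, rose by log2 fold changes of 2.73 ± 0.42 and 2.75 ± 0.28 (edgeR adjusted p = 0.0304 and 0.0246). Cebpd was at 12.8, 9.25 and 13.1 FPKM in sham and 100.4, 101 and 50.6 in ischemia. Ebf2 and Zfp423, factors that mark precursors of fat cells, fell by log2 fold changes of -2.14 ± 0.37 and -2.34 ± 0.48 (edgeR adjusted p = 0.0361 and 0.0446). Ebf2 was at 3.78, 1.73 and 3.74 FPKM in sham and 0.894, 0.488 and 0.755 in ischemia. Pparg, the factor required for fat-cell identity, was at 3.27, 3.33 and 10.4 in sham and 3.29, 4.32 and 3.87 in ischemia, with overlapping groups, and macrophages also make it. The neutrophil and macrophage sums given above moved with the rise of Cebpb and Cebpd, and the stromal sum with the fall of Ebf2 and Zfp423, and their part in these results was not tested.

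These 9 calls were lost when sham replicate 1, 2 or 3 or ischemia replicate 3 was left out, settings in which no gene passed, and Scd2 and Zfp423 also without ischemia replicate 2 (edgeR adjusted p = 0.075 and 0.0729), but the log2 fold changes kept their sign: leaving out each library gave 1.77 to 2.01 for Plin2, 5.60 to 6.50 for Angptl4, 1.39 to 1.67 for Slc27a4, 2.24 to 2.97 for Cebpb, 2.57 to 2.99 for Cebpd, -1.71 to -1.27 for Cav1, -2.37 to -1.90 for Ebf2 and -2.80 to -2.01 for Zfp423. Without ischemia replicate 1, 11 list genes passed as higher and 14 as lower.

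In 4 lists no gene passed edgeR. Triglyceride synthesis (18 tested, median -0.24) ran from Acsl1, the main acyl-CoA synthetase of heart and fat, at -1.85 ± 0.57, to Acsl4, an arachidonate-preferring synthetase, at 2.36 ± 0.86, with 8 genes at an unadjusted p under 0.05, 7 by DESeq2 and 1 by limma. Acsl4 rested on ischemia replicate 2, at 18.5 FPKM against 1.94 and 3.15 in the other ischemia libraries, and without it the log2 fold change was 0.86. Glyceroneogenesis (7 tested, median -0.36) ran from Mdh1 at -1.18 ± 0.50 to Fbp2 at 0.36 ± 1.34, with 1 gene at an unadjusted p under 0.05, 1 by DESeq2 and 0 by limma. Adipokines and their receptors (12 tested, median -0.44) ran from leptin, Lep, at -3.79 ± 1.45 to Itln1 at 5.90 ± 3.02, with 2, 2 and 0 by the same counts. Lep was at 0.856, 0.894 and 6.85 FPKM in sham and 0.546, 0.0305 and 0.0322 in ischemia, so ischemia replicate 1 again lay nearest to sham. Itln1 rested on ischemia replicate 1 alone, at 25.1 FPKM, against at most 0.424 in any other library. Sterol synthesis (19 tested, median 0.18), the sister pathway of SREBP-2, ran from Sc5d at -1.01 ± 0.30 to Idi1 at 1.37 ± 0.58, with 5 at an unadjusted p under 0.05, 5 by DESeq2 and 0 by limma.

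**Figure D5:**
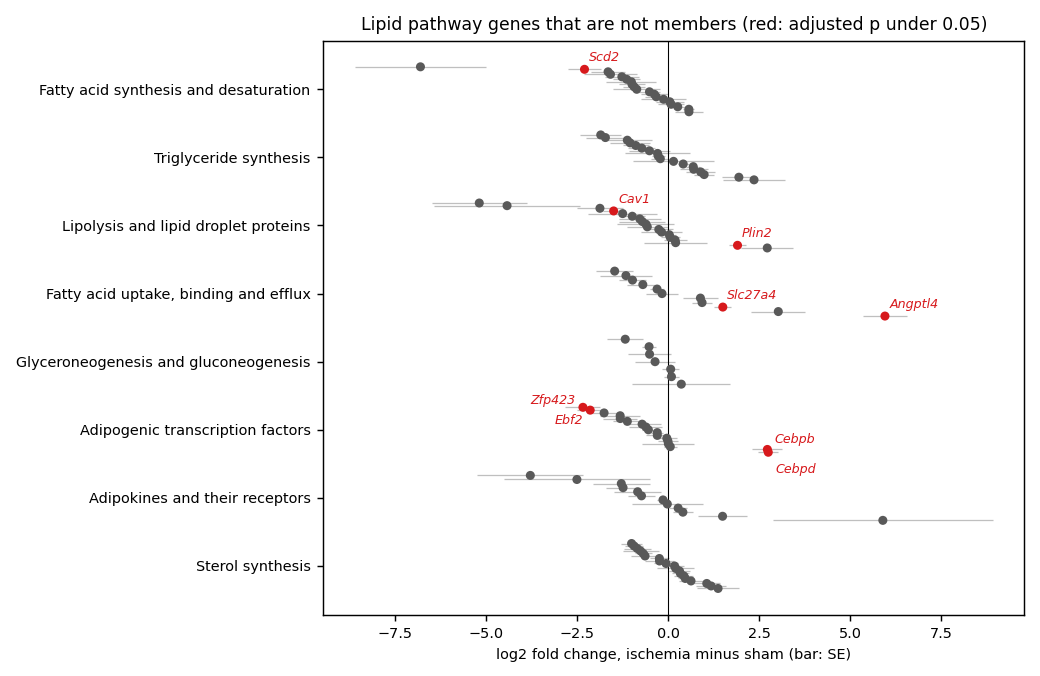
Log2 fold change of ischemia against sham with 1 SE on the horizontal axis for each tested gene of 8 lipid pathway lists on the vertical axis, the 10 chosen genes excluded. Red points mark the 9 genes past an adjusted p of 0.05 in edgeR, 5 to the right of 0 (Plin2, Angptl4, Slc27a4, Cebpb and Cebpd) and 4 to the left (Scd2, Cav1, Ebf2 and Zfp423).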

How the data were processed

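Rat myocardial RNA was sequenced after strand-specific library preparation. Raw read counts and FPKM per gene were deposited by the authors in a single table. The submitters' processing notes name STAR and HTSeq, with no version or role. The genome build and annotation are not given in the sources used here. Near-identical genes and overlapping genes may have been counted unevenly. The groups come from the labels. The 10 genes and all lists were chosen with earlier results of these data known.

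The deposited counts were limited to genes whose FPKM averaged 0.5 or more, and were scaled by TMM and compared with the quasi-likelihood test of edgeR 4.0.16 in R 4.3.3. P-values were two-sided and adjusted over 13964 genes by the Benjamini-Hochberg method (threshold 0.05). The SE was derived from the F statistic. For the 10 genes no p-value is given, and counts of them past a threshold are a description, since they were chosen on this contrast. DESeq2 1.42.0, limma 3.58.1 on log2(FPKM + 0.1), other scalings, other filters, each library left out and the replicate number as a block were the alternatives. The fits were tested on simulated data with known changes, where edgeR recovered fewer of the changed genes than DESeq2 and a larger share of the calls of DESeq2 was false.

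Named list genes were those past the threshold, at most 3 in each direction per list, or where none passed those with the highest and lowest fold change, together with the genes most like Scd and Adipoq, the leading gene of each marker list, and Scd2. Srebf1, Acly, Pparg, Thrsp, Retn, Rbp4, Dgat2, Gpd1, Aqp7, Plin4, Ucp1, Cidea, Cpt1b, Upk3b, Dpp4, Pi16, S100a8, Myl7 and Myl2 were chosen after their values were seen. Mlxipl, Cd36, Pcx, G6pc1, Pecam1, Muc16 and Ccr2 were not analysed here. Figures used matplotlib 3.10.9. Total counts ranged from 68529126 to 79591989 per library, and replicates of a group differed by more than counting noise.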

Additional observations from a re-analysis of the deposited data

How the results depend on the processing

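The directions of all 10 chosen genes were the same in every alternative that gave a value. The log2 fold change of Scd ranged from -7.82 to -4.84, a description, since these genes were chosen on this contrast. The numbers of genes called moved widely. Of all genes, 2071 were higher and 1742 lower in DESeq2, 83 were lower without TMM and 93 were lower without a filter, and leaving out each library gave 0 to 1490 higher and 0 to 1115 lower. Of the lipid pathway genes, 16 were higher and 25 lower in DESeq2, 2 were lower without TMM, 2 without a filter and 1 in limma on log2(FPKM + 1), and leaving out each library gave 0 to 11 higher and 0 to 14 lower. The cause of these changes was not tested. Fbp2 changed sign, with -0.31 to 2.83 over the libraries left out, and Itln1 did so with -1.44 to 12.48.

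No label ties a replicate number to a shared animal, litter or day, and the numbers did not pair the libraries: same-numbered libraries correlated at -0.0561, -0.094 and -0.196 in their deviations from the group means. With the replicate number as a block, edgeR called 0 genes higher and 0 lower, and 0 and 0 of the lipid pathway genes, where 3349 genes had an unadjusted p under 0.05. Of the 10 genes most like Scd, 6 stayed among the first 10 on log2(FPKM + 1), and of those most like Adipoq, 4 did. Genes near 3 counts, as Adipoq, Plin1 and Pck1 in ischemia replicates 2 and 3, are limited by depth.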
